A study of Mus musculus with 2 samples.

Results

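Clusters of 3 or more Nkx6.1 binding sites in mouse pancreatic islets are described here. On each nuclear chromosome the peaks were sorted by centre, neighbours at most 10 kb apart were linked, and every linked group of 3 or more peaks was kept. The rule gave 348 clusters with 1135 peaks, out of 15237 nuclear peaks (7.45%, exact binomial 95% interval 7.04 to 7.88) and 15239 peaks in all. Members enter in linked groups, so this interval, which treats peaks as separate, is too narrow. A further 3142 peaks lay in 1571 linked pairs and 10960 had no neighbour within 10 kb, called isolated below. The members were chosen by the positions of peaks called on ChIP over input. Their strength comes from the same 2 libraries, so the values below describe these libraries and carry no test.

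Nkx6.1 is a homeodomain transcription factor. Insulin-producing beta cells depend on it for their identity and for insulin secretion, and in the developing pancreas it takes part in the choice of the beta cell fate. Homeodomain proteins recognise short AT-rich sequences that occur very often in the genome. Several sites for such a factor within a few kilobases are a common layout of enhancers, the stretches of DNA that control genes from a distance, and a site may also lie within a group without having a role in control.

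Binding was measured by ChIP-seq, in which chromatin is pulled down with an antibody, here to Nkx6.1, and its DNA is sequenced, in islets labelled C57Bl/6 by genetic background. The comparison library was input, chromatin sequenced without an antibody, and the labels name no treatment or altered allele. The titles give both libraries the same islet label but do not state a shared preparation. Each group has 1 library from 1 set of islets, so animals cannot be compared. Intervals of tag counts and their ratios cover counting error alone. Those of medians cover the spread over peaks or clusters, and those of shares treat the counted peaks or clusters as separate draws. Islets hold several endocrine cell types, and the peak list cannot tell in which of them a site was bound, nor can the labelled tissue be checked against marker genes in it. The ChIP library held 202780986 tags (mapped reads), per the header of the peak list, while no source used here gives the depth of the input library. Strength is given as ChIP tags, the whole number of tags behind the deposited total for each peak. Fold is the deposited ratio of ChIP to input, in which each ChIP tag counts as 0.788. Whole ChIP tags divided by input tags therefore do not give the fold. Each peak is 133 bp long. The list begins at 109 ChIP tags, and its median nuclear peak held 172. Positions are in the mm9 build. Genes, exons and motifs at the clusters were not analysed here, for want of mm9 annotation and sequence.

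The largest clusters held 6 or 7 peaks and there were 5 of them. The cluster on chr9:61213998-61227150 packed 7 peaks into 13.2 kb. From first to last they held 219, 797, 177, 460, 294, 190 and 172 ChIP tags. The peak with most tags, called the lead, was the second in line at chr9:61218200-61218332, with 797 tags (Poisson 95% interval 743 to 854) and a fold of 29.3 with input at the lowest deposited value. The next strongest had 460 tags, with 40 input tags and a deposited fold of only 9.07. The lead exceeded it by 1.73 times in tags (exact conditional interval 1.54 to 1.95). The lead alone was high here, 1 peak stood between it and the rest, and 5 peaks lay between 172 and 294 tags. Of the 7 peaks 4 reached 8-fold over input.

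The cluster on chr10:59484431-59505369 had 7 peaks in 20.9 kb, holding 308, 226, 707, 187, 285, 242 and 171 ChIP tags in order. Its lead at chr10:59490435-59490567 had 707 tags (656 to 761) and a fold of 24.2, and a weaker peak of 187 tags sat 561 bp beyond it. The lead was 2.30 times (2.01 to 2.63) the next peak, and 5 of the 7 peaks reached 8-fold. In both clusters of 7 the lead was an inner peak and held about the same part of the summed tags, 34.5% on chromosome 9 and 33.3% on chromosome 10.

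The clusters of 6 peaks differed in layout. On chr3:31182241-31209289 the tags in order were 337, 215, 637, 225, 115 and 258, with the first 2 peaks only 341 bp apart and the lead 14.8-fold over 34 input tags. On chr8:123011768-123045216, the longest of all 348 clusters at 33.4 kb, the order was 134, 172, 144, 168, 214 and 555. Here the lead was the last peak, at 20.4-fold with input at the lowest value, and no other peak of the cluster reached 8-fold. On chr19:28731403-28759260 the tags were 134, 269, 242, 131, 276 and 172, and no peak stood out. The strongest and the next there, 276 and 269 tags, could not be ordered at this depth (ratio 1.03, 0.864 to 1.22).

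**Figure D1:**
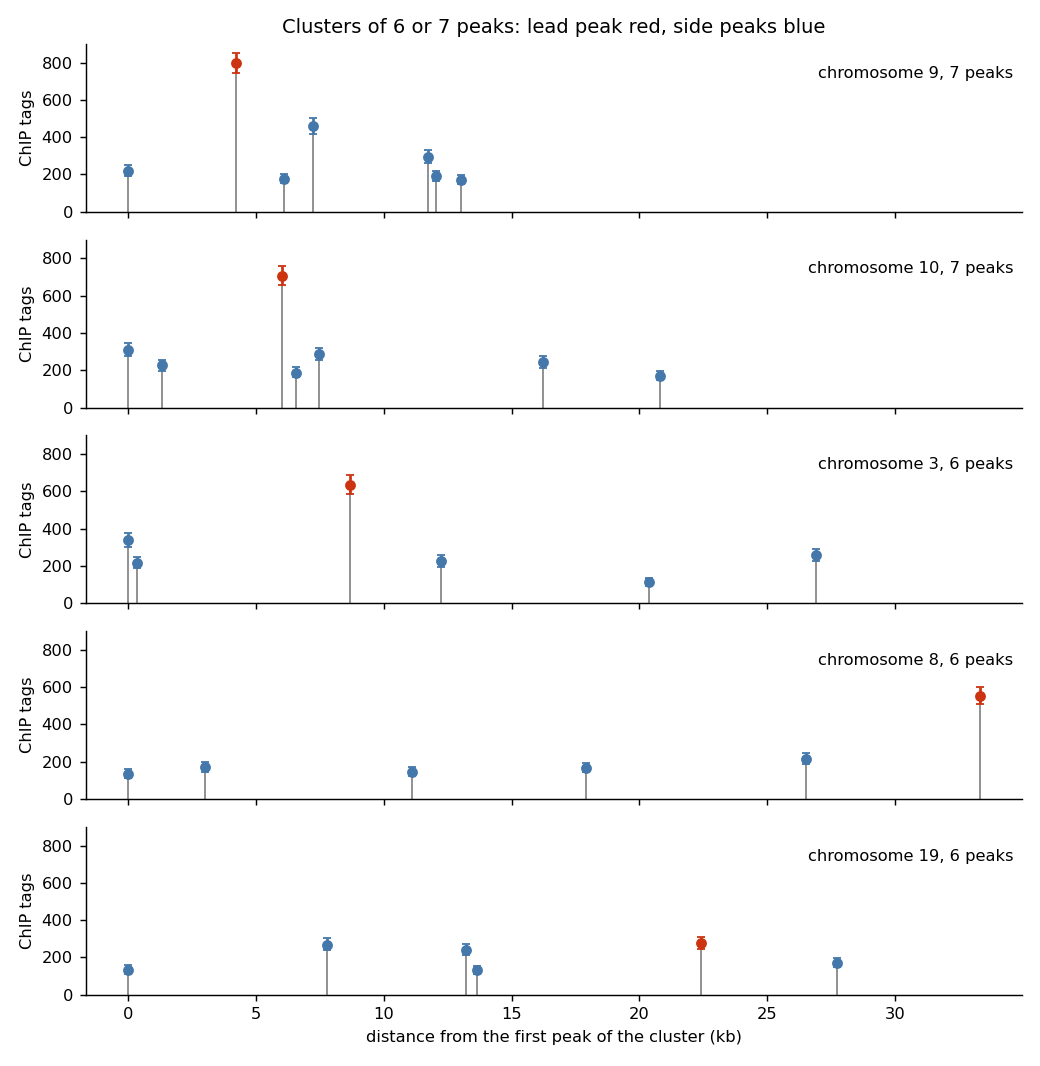
ChIP tags of each peak in the 5 clusters of 6 or 7 peaks (vertical axis) against the distance in kb from the cluster's first peak, with the lead in red, side peaks in blue and Poisson 95% intervals as bars. The leads on chromosomes 9, 10, 3 and 8 held 797, 707, 637 and 555 tags and stand above their side peaks, while on chromosome 19 the lead of 276 tags is level with a side peak of 269.

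Most clusters were small. Of the 348 clusters 284 (81.6%) had exactly 3 peaks, 44 had 4, 15 had 5, 3 had 6 and 2 had 7. From the start of the first to the end of the last peak the median cluster was 8.84 kb long (interval over clusters 8.23 to 9.53; quartiles 5.96 and 12.5 kb). The shortest was 0.73 kb, 206 clusters were under 10 kb and 13 were over 20 kb. Median length was 7.98 kb for 3 peaks, 13.1 kb for 4 and 18.7 kb for 5. The linking distance caps the length at each number of peaks, so the rise with number is in part set by the rule. Among the 5 clusters of 6 or 7 peaks, the one on chromosome 9 had the smallest mean spacing, 2.17 kb. The median was 3.92 kb in clusters of 3, some of which were far tighter, down to 0.2985 kb.

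Spacing inside clusters was uneven. The 787 gaps between neighbouring centres had a median of 3.62 kb (3.27 to 4.22) and quartiles of 1.13 and 6.75 kb. Gaps of at most 500 bp numbered 92, those from 500 to 1000 bp 80, those from 1 to 2 kb 114, those from 2 to 5 kb 178 and those from 5 to 10 kb 323. Counted per kb of distance, that is 184, 160, 114, 59.3 and 64.6 gaps, so short gaps were the most frequent and the 2 bands beyond 2 kb were similar. The caller's minimum distance of 266 bp leaves much of the shortest band nearly empty, so 184 understates the frequency between that distance and 500 bp. Linked pairs had a similar share of gaps of at most 500 bp, 11.6% against 11.7% in clusters. In clusters of 3 the larger gap was at the median 3.23 times the smaller one, so the 3 peaks were often unevenly placed. The larger gap is picked as such, and whether unrelated gaps would be as uneven was not tested. A gap under 1 kb occurred in 146 clusters (42.0%), and in 16 clusters all gaps were under 1 kb. In 52 clusters every gap exceeded 5 kb.

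**Figure D2:**
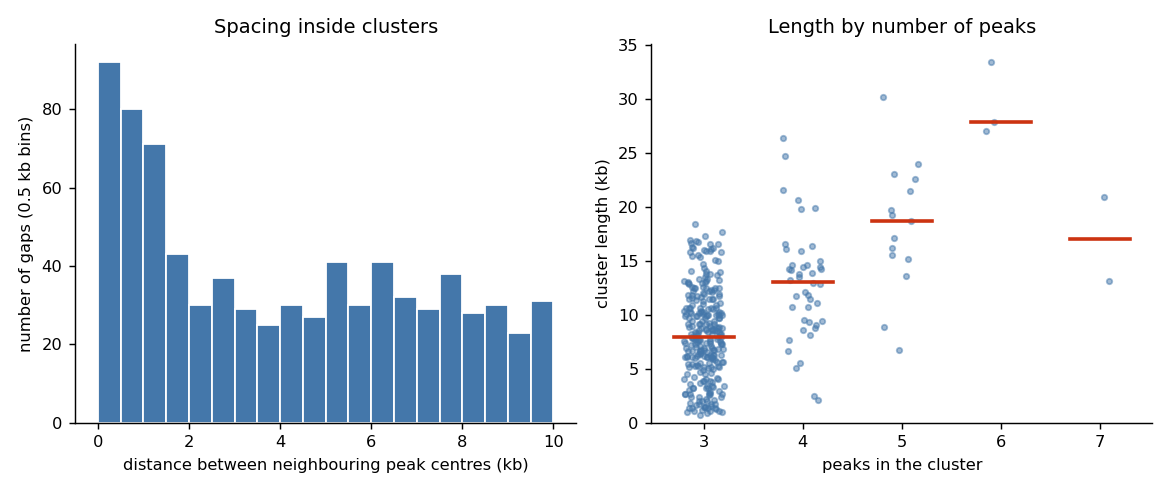
Left, number of gaps between neighbouring peak centres in clusters by distance in bins of 0.5 kb; right, length of each cluster in kb by its number of peaks, 1 point per cluster with the median as a red bar. The leftmost bin holds 92 gaps, and median length goes from 7.98 kb for 3 peaks to 18.7 kb for 5.

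At the edge of the rule, the widest gap kept inside a cluster was 9961 bp and 54 gaps were over 9 kb. The nearest peak left outside a cluster was 10155 bp away, and 15 clusters had another peak within 11 kb of their outermost centre. At the other end, the header gives 266 bp as the minimum distance between peaks, and 2 gaps of 251 and 264 bp were below it. The next smallest was 269 bp. The median cluster lay 34.3 kb from the next peak outside (quartiles 18.7 and 65.3 kb), and 132 clusters (37.9%) had one within 25 kb.

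The shortest clusters of 3 peaks were tight runs with centres well under 1 kb apart. The cluster on chr2:159710460-159711189 was 0.73 kb long with 171, 199 and 242 ChIP tags, and all folds were between 6.29 and 7.32. On chr10:59383524-59384414 the peaks held 226, 198 and 121 tags in 0.891 kb. On chr13:116136574-116137529 they held 403, 403 and 208 tags in 0.956 kb, and the tied peaks differed in input (24 and 41 tags) and so in fold (13.2 and 7.75). The ratio of ChIP tags to the deposited normalized count, brought to the same depth, had a median of 2.01 in 56 nuclear peaks with a neighbour within 300 bp. It was 1.94 to 1.96 in all wider bands, isolated peaks included. No source used here gives the window in which the caller counted these tags. The ratio is therefore no test of whether peaks this close counted some of the same tags.

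The longest clusters of 3 peaks were strung out close to the limit of the rule. On chr8:87276255-87294695 the peaks held 223, 132 and 537 tags over 18.4 kb. The cluster on chr1:167021886-167039595 had equal outer peaks of 286 tags around a middle peak of 168, over 17.7 kb. On chr4:135033334-135050649 the order was 114, 540 and 382 tags over 17.3 kb.

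Each cluster has by definition a strongest peak, so a lead is high and its side peaks are low by choice. The values that follow describe how far apart they stood and are no evidence of a difference from isolated peaks. Leads held a median of 287.5 ChIP tags (275 to 306; quartiles 217 and 402), from 123 to 1740. The 787 side peaks held a median of 161 tags (156 to 164; quartiles 130 and 206), from 109 to 536. Set against the median nuclear peak, leads stood at 1.67 times and side peaks at 0.936 times. Isolated peaks had a median of 170 (168 to 172), and linked pairs 227 (220 to 233) for the stronger and 143 (141 to 146) for the weaker peak. Over all 1135 members the median was 186 (179 to 191), the value that does not depend on the split into lead and side, against 170 in isolated peaks. Members made up 7.45% of nuclear peaks and held 7.88% of their ChIP tags.

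Of all nuclear peaks, 24.1% had a deposited fold of 8 or more and 2.32% a fold of 20 or more. Among members 28.3% (321 peaks, 25.7 to 31.0) reached 8-fold and 2.03% (23 peaks, 1.29 to 3.03) reached 20-fold. These shares are close to the background, and no excess of very strong peaks in clusters is read from them. By role, 61.2% of leads (55.9 to 66.4) and 13.7% of side peaks (11.4 to 16.3) reached 8-fold. The split by role is largely set by the sorting, as fold is computed from the same ChIP tags. All 23 members at 20-fold or more were leads, and the strongest side peak held 536 tags. No cluster therefore held 2 peaks at 20-fold. In 129 clusters no peak reached 8-fold, in 140 exactly 1 did, in 79 at least 2 did, and in 8 every peak did.

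**Figure D3:**
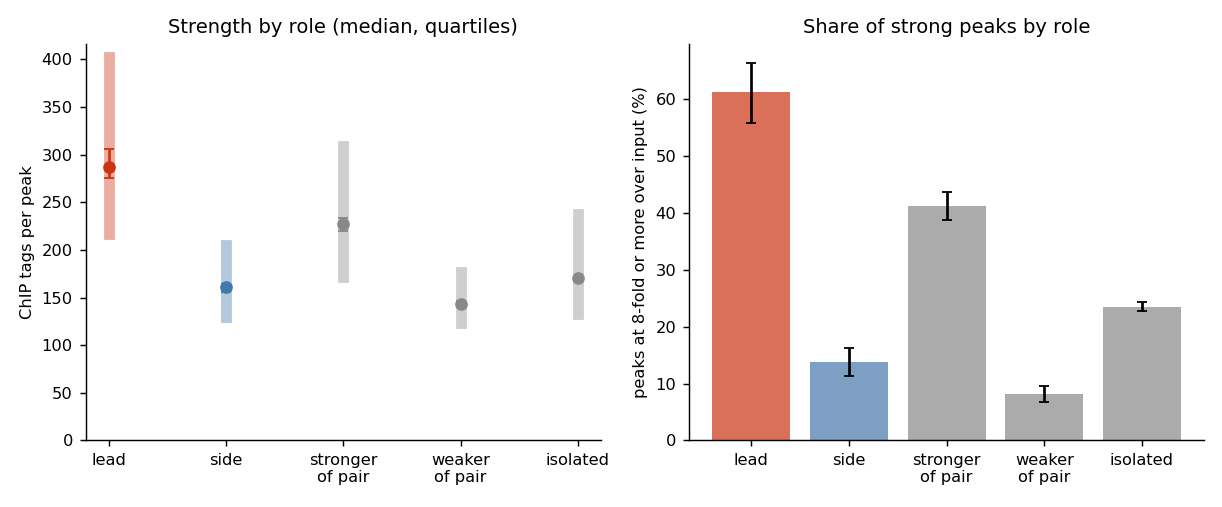
Left, ChIP tags per peak by role (point, median with its 95% interval; shaded bar, quartiles); right, percentage of peaks at 8-fold or more over input with exact binomial 95% intervals. Leads have a median of 287.5 tags and side peaks 161, on either side of the 170 of isolated peaks, and 61.2% of leads against 13.7% of side peaks reach 8-fold.

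The strength fell off from the lead to the weakest peak in steps. In clusters of 3 the medians of the peaks in order of strength were 286.5, 186 and 134.5 tags. In clusters of 4 they were 290, 206, 164 and 126, and in clusters of 5 they were 306, 253, 175, 156 and 127. The weakest peak thus sat near the entry level of the list at each of these numbers, while the median lead was between 286.5 and 306 tags. The 2 clusters of 7 were apart from this, with a median weakest peak of 171.5.

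The lead exceeded the mean of its side peaks by a median of 1.60 times (1.53 to 1.70; quartiles 1.32 and 2.11), and the next strongest peak by a median of 1.38 times. In 229 clusters (65.8%) the counting interval of lead over next peak lay above 1, and in 119 it did not, so in the latter the identity of the lead is not resolved at this depth. This interval takes no account of having picked the highest of several counts. The lead held a median of 43.0% of a cluster's summed tags and more than 50% in 79 clusters. It was at least 2 times the mean of its side peaks in 97 clusters and at least 5 times in 8.

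The clusters with the most uneven peaks each had 1 strong site with weak company. On chr1:97207836-97223659 the tags in order were 187, 1740 and 144, so the lead was 10.5 times the mean of its side peaks and 9.30 times (8.0 to 10.9) the stronger of them. That lead, at chr1:97213682-97213814, held 84.0% of the summed tags, and its side peaks, 5.85 kb before it and 9.85 kb after it, reached 6.88-fold and 5.30-fold with input at the lowest value. On chr13:54520502-54528726 the tags were 128, 1190 and 178 (ratio to the side mean 7.78), and on chr7:56759624-56771053 they were 119, 195 and 1204 (7.67). On chr17:69610928-69624691 they were 175, 1137 and 183 (6.35), and on chr1:135718215-135731094 they were 144, 132 and 869 (6.30). In these 5 clusters no side peak exceeded 195 tags or 8-fold, and the lead was the middle peak in 3 and the last in 2.

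At the other extreme all peaks of a cluster were alike. On chr7:52964540-52973443 the tags were 203, 202 and 205, all above the nuclear median of 172, and the ratio of lead to side mean was 1.01. The peak with most tags there had the lowest fold (4.62), as its input stood at 35 tags against 21.4 and 23. The next 4 clusters by evenness were chr16:70314289-70316298 with 127, 133 and 125 tags, chr7:107731280-107739921 with 164, 167 and 175, chr2:133324505-133325989 with 123, 110 and 122, and chr19:34783155-34789146 with 160, 167 and 175. Their folds ran from 4.03 to 6.44 and no peak reached 8-fold. As the list begins at 109 tags, little room is left below leads of 133 and 123 tags. The caller's 4-fold over input requires more tags where input is higher. The lead of 133 tags, with 26 input tags, stood at 4.03-fold. The evenness of those 2 clusters is in part set by these entry limits. Over all clusters the peak with most tags was not the peak with the highest fold in 55 of 348.

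**Figure D4:**
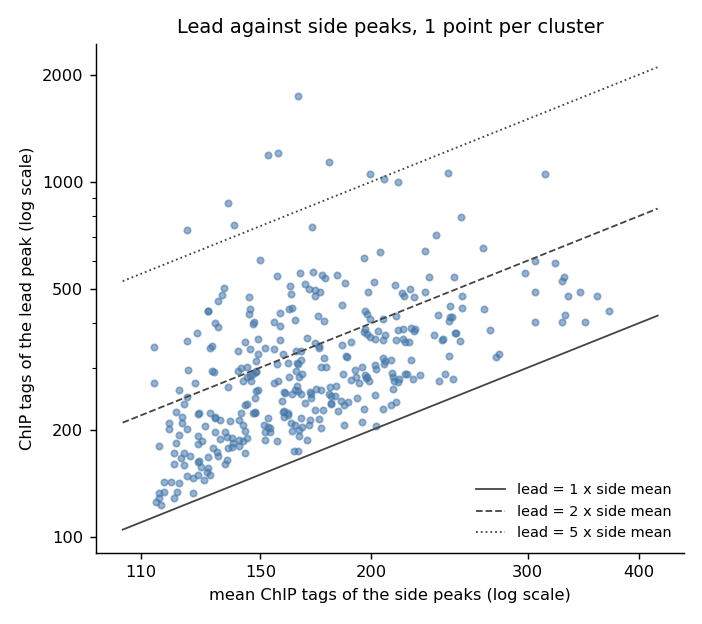
ChIP tags of the lead (vertical axis) against the mean ChIP tags of its side peaks (horizontal axis), both on log scales, 1 point per cluster, with lines where the lead is 1, 2 and 5 times the side mean. Of 348 clusters 97 lie on or above the line of 2 and 8 on or above the line of 5, with the cluster at 1740 tags highest.

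At least 2 peaks reached 8-fold in 79 of the 348 clusters, beside a share of 28.3% of members and 24.1% of all nuclear peaks. Whether such counts differ from what these shares alone would give was not tested. The 8 clusters in which every peak reached 8-fold, singled out after their values were seen, had 3 peaks each. In chr1:185986538-185993595 the weakest peak held 354 tags and the folds ran from 13.0 to 15.0. Another was chr12:103787643-103792747, with folds from 9.57 to 15.9. A pair of them, chr5:102000571-102008972 and chr5:102074339-102076070, lay 65.4 kb apart, with leads of 490 and 421 tags. By summed tags the leading clusters were those on chromosomes 9 (2309), 10 (2126) and 1 (2071) described above, then chr10:68613824-68643956 with 1819 and the cluster of 6 on chromosome 3 with 1787. The cluster on chr10:68613824-68643956 had 5 peaks spread over 30.1 kb, with 216, 222, 248, 536 and 597 tags in order. Its last 2 peaks, 9.81 kb apart, reached 19.7-fold and 22.0-fold and could not be ordered by tags (ratio 1.11, 0.99 to 1.25).

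The place of the lead was spread over the cluster. In the 284 clusters of 3 the lead was the first peak in 92 (32.4%, 27.0 to 38.2), the middle peak in 113 (39.8%, 34.1 to 45.7) and the last in 79 (27.8%, 22.7 to 33.4). An equal spread over the places would give 33.3% each, which lies inside the intervals for the first and last place and barely below the one for the middle. Leads in the middle were not the stronger ones, with a median of 275 tags against 293.5 in first and 308 in last place. In clusters of 4 the lead was an inner peak in 22 of 44 (50%, 34.6 to 65.4), the share that equal places would give. The median distance from a lead to its nearest fellow peak was 2.21 kb. In 5 clusters the lead was tied with another peak, and the first in position was then taken.

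Peaks of the same cluster were hardly more alike in strength than peaks of the whole list. The SD of log2 ChIP tags within clusters was 0.634, against 0.647 over all nuclear peaks. Across the 787 neighbouring members log2 tags had a Pearson correlation of 0.07, and 0.02 over the 615 gaps above 1 kb. By distance it was 0.42 for the 92 gaps of at most 500 bp (Spearman 0.39), 0.16 from 500 to 1000 bp (0.09), 0.04 from 1 to 2 kb (0.10), 0.18 from 2 to 5 kb (0.18) and -0.04 from 5 to 10 kb (-0.01). In linked pairs the Pearson value was 0.11 for the 183 gaps of at most 500 bp and 0.22 from 500 to 1000 bp, above that of clusters. Over the wider bands it was 0.10, 0.07 and -0.001. All these points share 1 library, its depth and the entry level of 109 tags, neighbouring gaps share a peak, and whether close peaks share tags was not tested. Lead and mean side tags correlated more (Pearson 0.53 and Spearman 0.58 over 348 clusters, log2 scale), but a lead is at least as high as its sides by choice, which ties these values together.

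Other columns of the list moved with the role of a peak. Input was above the lowest deposited value, 21.4 tags, for 47.7% of leads (42.3 to 53.1), 33.9% of side peaks (30.6 to 37.4), 38.1% of all members (35.3 to 41.0) and 31.3% of isolated peaks (30.5 to 32.2). Linked pairs showed a similar split, with 44.6% for the stronger and 28.2% for the weaker peak, beside 32.9% of all nuclear peaks. Leads thus had input above its minimum more often than side peaks, which is not particular to clusters. The caller required 4-fold over input, so a peak with higher input entered the list only with more ChIP tags. With leads sorted by tags, their higher share is in part set by this filter. The part of input in the count of clustered peaks was not tested. Among peaks with input above the minimum, 25.9% of 433 members and 22.2% of 5012 nuclear peaks reached 8-fold. The clonal fold, a measure of tags stacked on the same position, had a median of 0.80 in leads, 0.87 in side peaks and 0.86 in isolated peaks.

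Enrichment over the surrounding 10000 bp depends on what else lies there. By the rule every member has another peak within 10 kb and an isolated peak has none, so a lower local fold in members is in part set by the choice of members. The median was 12.2-fold for leads, 7.02-fold for side peaks, 8.04-fold for all members and 10.45-fold for isolated peaks. Linked pairs were close to the clusters, with 11.3-fold for the stronger and 7.18-fold for the weaker peak. Side peaks had a median local fold of 6.74 (6.34 to 7.73) within 500 bp of their lead, 5.78 (5.42 to 6.50) at 500 to 1000 bp, 5.70 (5.35 to 6.31) at 1 to 2 kb and 6.26 (5.88 to 6.61) at 2 to 5 kb. At 5 to 10 kb it was 7.87 (7.47 to 8.15) and beyond 10 kb 7.72 (7.10 to 8.31). Their ChIP tags followed no such course, with medians of 172, 156, 159.5, 174, 154 and 154 over the same distances. The leads of these side peaks, counted once per side peak, had median local folds of 10.7, 10.9, 10.6, 10.6, 13.9 and 14.2. Local fold was thus higher beyond 5 kb in leads and side peaks alike. The part that distance from a lead plays in this was not tested. The caller required a local fold of 4. Whether weaker sites close to a lead fell below this limit, and so out of the list, was not tested.

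**Figure D5:**
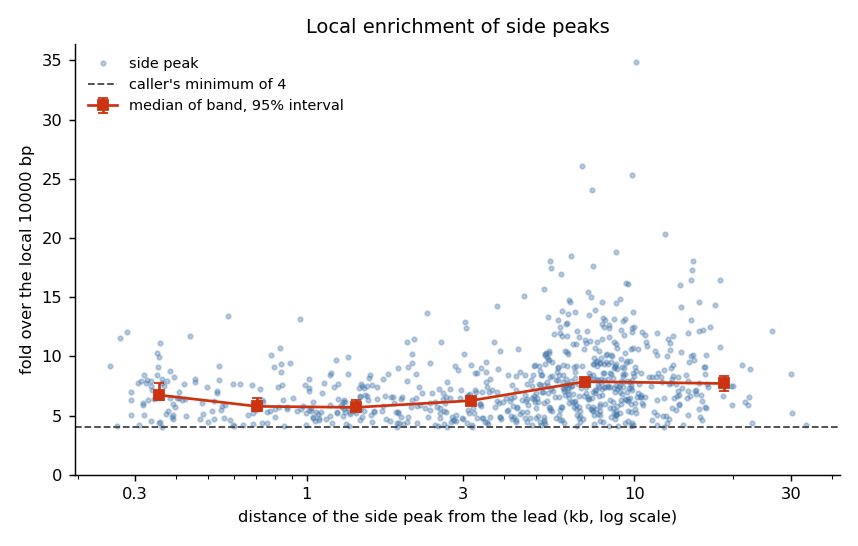
Fold of each side peak over its surrounding 10000 bp against its distance from the lead in kb (log scale), with the median of 6 distance bands and its 95% interval in red and the caller's minimum of 4 as a dashed line. The median is between 5.70 and 6.74 in the bands below 5 kb and 7.87 at 5 to 10 kb.

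Clusters were found on all 19 autosomes and on chromosome X. On autosomes 7.71% ± 2.43 of peaks were members (SD, n = 19 autosomes). Chromosome 19 had the highest share with 14.5% (67 of 462 peaks in 20 clusters, 11.4 to 18.0), and chromosome 4 had the most clusters, 29 with 95 peaks (9.78%, 7.99 to 11.8). The shares of chromosomes 16 (3.58%, 2.17 to 5.53, in 6 clusters) and 6 (4.09%, 2.87 to 5.65, in 11 clusters) were the lowest among autosomes. Members of a cluster are counted together, so the intervals, which treat peaks as separate, are too narrow. A chromosome with more peaks per Mb gives more links at a fixed distance, and peak density was not taken out of these shares.

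Chromosome X had a single cluster, with 3 of its 192 peaks (1.56%, 0.323 to 4.50). It lay on chrX:149480120-149485317 with 116, 223 and 206 tags. Its lead reached 8.21-fold with input at the lowest value, and the nearest peak outside it was 89.1 kb away. This cluster was weaker than the median one, with 545 summed tags against 673.

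Some clusters were themselves neighbours. Of successive clusters on a chromosome, 14 couples were within 100 kb of each other and 9 within 50 kb. The couples named next were picked after their values were seen. On chromosome 19, 3 clusters of 3 peaks followed each other from 24434042 to 24510473, separated by 35.2 and 11.6 kb, with leads of 275, 354 and 483 tags. On chromosome 8 the cluster of 6 peaks ending at 123045216 was followed after 16.7 kb by a cluster of 4 on chr8:123061876-123073718, whose lead held 476 tags against 555. Also on chromosome 8, chr8:67108322-67123342 with a lead of 1049 tags at 26.7-fold was followed 14.4 kb on by a cluster whose lead held 372.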

How the data were processed

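One peak list was analysed. Per the file headers, the authors called peaks with HOMER findPeaks in factor style on ChIP against input tags, at a false discovery rate of 0.001, with fragment lengths of 80 bp (ChIP) and 70 bp (input), at most 10 tags per position, and at least 4-fold over input and over the local 10000 bp, each at a Poisson p-value of at most 0.0001. Bowtie and mm9 are named in the submitters' processing notes, with no version in the sources used here. The deposited signal columns are ChIP tags scaled by a constant, input tags with a minimum of 21.4, and a normalized tag count per 10000000 tags. The ChIP column was divided by its step of 0.788, and 100% of peaks then came within 0.1 of a whole tag. The fold columns are deposited ratios, and folds at the input minimum are lower limits. The deposited score served as an alternative measure of strength, and the deposited fraction for strand placement and the deposited p-value columns were not used.

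The 2 mitochondrial peaks were left out. Medians carry order-statistic intervals, shares exact Clopper-Pearson intervals, tag counts exact Poisson intervals and ratios exact conditional intervals, all at 95%. PCR copies are not independent molecules, so intervals of tag counts and ratios cover counting error only. Clusters described by position are those with 6 or more peaks, the 5 with most summed tags, the 5 highest and 5 lowest in lead to side ratio, the 3 shortest and 3 longest of 3 peaks, and any on chromosome X. The rule, members and lists were chosen with earlier results of these data known. Other linking distances, joined peaks, a 5-fold minimum and other strength measures were tried. Linking and the tag step were tested on simulated data. Planned gene and motif descriptions were not run, as the reference tables are of GRCm38. Values were computed in Python 3.11.15 with scipy 1.17.1, pandas 2.3.3 and numpy 2.4.6, and drawn with matplotlib 3.10.9.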

Additional observations from a re-analysis of the deposited data

How the results depend on the processing

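The number, size and spacing of clusters depended on the linking distance and the threshold, as these define a cluster. The lead to side ratio fell below its interval of 1.53 to 1.70 at 5 kb and stayed inside it at the other settings. At 5 kb there were 136 clusters with 424 peaks (2.78%), a median length of 4.07 kb, a median gap of 1.51 kb, a lead to side ratio of 1.51, a lead to side correlation of 0.67 and 1.18% of members at 20-fold. At 25 kb there were 932 clusters with 3399 peaks (22.3%), a median length of 24.5 kb, a gap of 9.32 kb and side peaks at 0.901 of the median nuclear peak. Joining peaks under 1 kb apart left 745 members (5.07%) in 232 clusters, 10.96 kb long with gaps of 5.30 kb. Peaks at 5-fold or more gave 145 clusters with 464 peaks (4.72%), with leads at 1.57 and side peaks at 0.90 of that list's median. The share of clusters of 3 led by the middle peak ran from 35.3% to 40.0% over the alternatives. These settings reuse the same peaks and no interval was computed for them. They are therefore no separate evidence that the middle place leads more often than 33.3%. The lead to side ratio ran from 1.51 to 1.69. Other measures of strength, and keeping peaks with input above the minimum for the fold shares, moved no value beyond its interval. The correlation of neighbours without gaps under 1 kb was chosen after the data were seen. No paired analysis was possible because there is only 1 library a group. Input at its minimum limits folds, and the list holds no site below 109 ChIP tags.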
